A study of Mus musculus with 6 samples.

Results

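The cell cycle and replication genes examined here were 33 genes chosen by name: 5 cyclins of the G1 phase (Ccnd1, Ccnd2, Ccnd3, Ccne1 and Ccne2), 9 genes of DNA replication (Mcm2 to Mcm7, Pcna, Rrm2 and Tyms) and 19 genes of mitosis. They are 33 of the 31791 gene names on the array, and all 33 had a probe, 44 probes in all. A probe was tested if, in either genotype, the scanner software marked all 3 arrays as well above background. This left 31 of the 33 genes, 30 of which were well above background on all 6 arrays.

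The study compared ovaries of wild type C57BL/6J mice with ovaries of SeBP1 knockout mice of the same strain, to ask what loss of selenium-binding protein 1 (gene Selenbp1) does to gene expression. All mice were female and 20 weeks old, and there were 3 arrays of each genotype, each with Cy3-labelled material from 1 RNA sample. The labels do not give the allele, the stage of the oestrous cycle or whether an array is 1 animal, so the p-values measure only the spread between these samples. Of the 6 arrays, wild type 1 and 2 lay on one slide and wild type 3 shared the other slide with the 3 knockouts.

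In dividing cells the D-type cyclins, and then the E-type cyclins, activate kinases that phosphorylate the retinoblastoma protein and so free E2F transcription factors, which switch on replication genes. Genes of mitosis are switched on later, largely by the MuvB complex with B-Myb and FoxM1, often through a promoter element called CHR that lies close to CCAAT boxes. In the ovary most dividing cells are granulosa cells of growing follicles, which leave the cycle when they form a corpus luteum. Oocytes do not divide by mitosis but store messenger RNA for several mitotic genes, here taken as Ccna2, Ccnb1, Ccnb2, Cdk1, Aurka, Plk1, Bub1, Bub1b and Cdc20. Because each sample is whole tissue, fewer cells of a type and less RNA per cell cannot be told apart.

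Every value below is log2 of a probe's signal minus log2 of its array's 75th percentile, so that 0 is the level of the 75th percentile. Differences are knockout minus wild type. The labels were checked with Selenbp1, which had a wild type mean of 2.60 ± 0.08 and a knockout mean of -0.15 ± 0.20 (SD, n = 3 each), 6.72-fold lower (limma, adjusted p = 0.0104). The labels do not say whether its probe lies in the deleted part. It was the only one of 24415 probes called at an adjusted p under 0.05, or 0.0041% of them. Between 61.6% and 69.3% of probes were well above background on an array, and no spot was saturated.

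No member of the cell cycle set differed between genotypes past the threshold. The 31 measured genes had an adjusted p of 1.0 each (limma, Benjamini-Hochberg over all probes), and 2 of them had an unadjusted p under 0.05, where 4.17% of all genes did. Knockout values lay above all wild type values in 2 genes, Ccnd2 and Cenpf, against 3.95% of all genes, and below them in 0, against 4.84%. These counts are near the background for 31 genes, and Cenpf passed the filter only through its knockout arrays. The difference was above 0 in 24 genes and below 0 in 7, with a median of 0.11, beside a median of -0.02 over all genes. Without knockout 2, 11 were above 0 and 20 below, with a median of -0.06. With wild type 2 left out as well, a choice made after seeing the data, 20 were above 0 and 11 below, with a median of 0.08. Leaving out any other array gave a median between 0.03 (without wild type 3) and 0.25 (without knockout 1). With limma's array weights, which were lowest for wild type 3 (0.40) and knockout 2 (0.48), 9 were above 0 and 22 below, with a median of -0.07. On the slide that holds both genotypes, 27 were above 0 and 4 below, with a median of 0.30 against the single wild type array there.

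What the members shared was their order across arrays. Knockout 2 was the highest of the 6 arrays in 28 of the 31 genes (90.3%), beside 23.6% of 19223 genes measured on all arrays. Wild type 2 was the highest of the wild type arrays in the same 28, beside 31.9% of all genes. The 3 exceptions were Ccnd1, Ccnd3 and Tyms. Both arrays led their own genotype in 28 of 31 members and in 20.5% of all genes, and they came from different slides. The range among the 3 knockouts was wider than the genotype difference in 30 of 31 members, all but Ccnd2, and the range among the 3 wild types was wider in 29, all but Ccnd2 and Cenpf. The median range was 0.68 among knockouts and 0.44 among wild types, and the median size of the difference was 0.13.

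**Figure D1:**
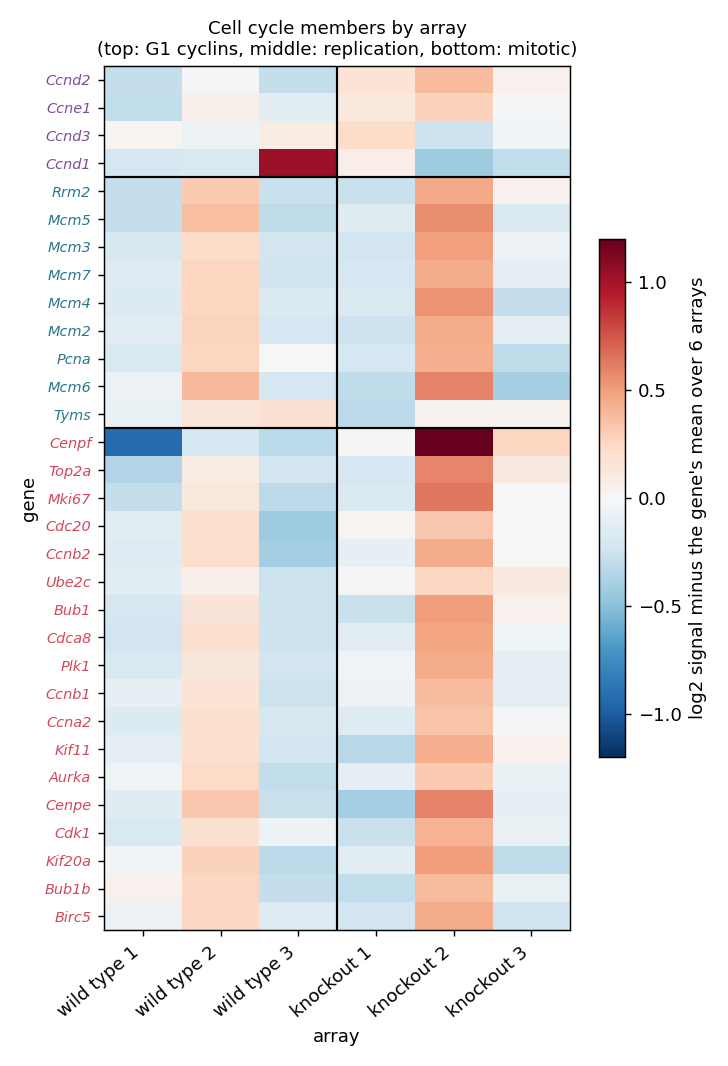
Heat map of the 31 measured genes (rows, grouped as G1 cyclins, replication and mitotic genes, and sorted by genotype difference within a group) by array (columns, 3 wild type and 3 knockout), coloured by log2 signal minus the gene's mean over 6 arrays. Knockout 2 is the reddest column in 28 of the 31 rows, and wild type 2 is the highest wild type column in the same 28.

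No replication gene differed past the threshold, and most of them were high on the same arrays. Of the 9, the difference was above 0 in 6 and below 0 in 3, 0 were called, 0 had an unadjusted p under 0.05 (limma), and the median was 0.05. The median deviation from each gene's own mean was -0.16, 0.26 and -0.21 in wild type 1 to 3 and -0.23, 0.46 and -0.12 in knockout 1 to 3. Wild type 2 and knockout 2 were thus the high arrays of their genotypes, and the other 4 lay close together. Without knockout 2, all 9 differences were below 0, with a median of -0.16, and with array weights all 9 were below 0, with a median of -0.15. With both wild type 2 and knockout 2 left out, 4 were above 0 and 5 below, with a median of -0.02. The median was -0.0047 without wild type 1, -0.02 without wild type 3 and between 0.17 and 0.19 without any of the other 3. On the shared slide, against wild type 3 alone, 7 were above 0 and 2 below, with a median of 0.23.

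The Mcm2 to Mcm7 proteins form the ring that unwinds DNA at the fork. Mcm5 was at 1.50, 2.15 and 1.48 in wild type and 1.65, 2.35 and 1.62 in knockout, a difference of 0.16 (SE 0.27). The highest wild type value exceeded the knockout values other than that of knockout 2, so the genotypes overlapped. The remaining subunits differed by 0.05 (Mcm2), 0.13 (Mcm3), 0.05 (Mcm4), -0.07 (Mcm6) and 0.10 (Mcm7), each with a standard error between 0.22 and 0.30. Pcna, the sliding clamp that holds DNA polymerase on its template, differed by -0.05 (SE 0.23). Its 60-base probe is mapped over only 33 bases, which was not checked against transcripts.

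Rrm2, the regulated subunit of ribonucleotide reductase, which makes deoxynucleotides, was at 1.66, 2.26 and 1.68 in wild type and 1.68, 2.40 and 1.99 in knockout, a difference of 0.16 (SE 0.25). It showed the same pair of high arrays as Mcm5. Tyms, thymidylate synthase, was at -4.00, -3.76 and -3.72 in wild type and -4.22, -3.87 and -3.86 in knockout, a difference of -0.16 (SE 0.15). Tyms was the only replication gene in which neither array numbered 2 was the highest of its genotype. Its probe was dim, though well above background on all 6 arrays.

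The G1 cyclins shared no direction: of the 4 measured, 2 differences were above 0 and 2 below, with a median of 0.10. Ccnd2, the D-type cyclin that follicle-stimulating hormone induces in granulosa cells and that their proliferation needs, was at 3.11, 3.37 and 3.11 in wild type and 3.55, 3.77 and 3.44 in knockout. All 3 knockouts lay above all 3 wild types, and the means of 3.19 ± 0.15 and 3.59 ± 0.17 (SD, n = 3 each) differed by 0.39 (SE 0.14), a level 1.31-fold higher that did not pass the adjusted threshold (limma, adjusted p = 1.0). The difference lay between 0.30 and 0.48 whichever array was left out. It is the one member for which a single 60-base probe carried a separation of the genotypes at a bright signal, and its sequence is shown for that reason. The files place it on the minus strand at chr6:127098696-127098755 of build mm9.

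Ccnd2 probe: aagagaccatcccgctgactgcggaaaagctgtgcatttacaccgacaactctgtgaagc

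Ccne1, a cyclin E that acts at the entry to S phase, was at -0.48, -0.13 and -0.32 in wild type and -0.07, 0.09 and -0.21 in knockout, a difference of 0.25 (SE 0.14). The genotypes overlapped through wild type 2 and knockout 3. This 60-base probe is mapped over only 24 bases, which was not checked against transcripts. A second, dim Ccne1 probe gave 0.43. Ccnd1 was at -0.96, -0.93 and 0.30 in wild type and -0.66, -1.17 and -1.04 in knockout, a difference of -0.43 (SE 0.36). Wild type 3 stood apart from the other 5 arrays, and without it the difference was -0.01. On the shared slide, where wild type 3 is the only wild type array, it was -1.25 (limma, adjusted p = 0.565, and 0.242 in the fit of all 6 arrays with the slide as a fixed block). Ccnd3 differed by -0.04 (SE 0.14), and by -0.10 on its second probe. Ccne2 was well above background on 0 of the 6 arrays. Its only probe is 85% A and T, the highest share of any probe on the array, and whether this bears on its signal was not tested.

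Most mitotic genes were slightly higher in knockout in the mean, by less than the spread between arrays. Of the 18 measured, 16 differences were above 0 and 2 below, 0 were called, and the median was 0.16. Only 1, Cenpf, had an unadjusted p under 0.05 (limma), where 4.17% of all genes did. Cenpf passed the filter only through its knockout arrays. The median deviation of the 18 was -0.15, 0.19 and -0.26 in wild type 1 to 3 and -0.14, 0.44 and -0.04 in knockout 1 to 3. Knockout 2 was the highest array in all 18. Without it 8 were above 0 and 10 below, with a median of -0.02. Leaving out any other array gave a median between 0.06 (without wild type 3) and 0.28 (without knockout 1). With array weights 6 were above 0 and 12 below, with a median of -0.03. On the shared slide, against wild type 3 alone, all 18 were above 0, with a median of 0.33. Wild type 3 was the lowest of the 6 arrays in 10 of the 18. With wild type 2 and knockout 2 both left out, 13 were above 0 and 5 below, with a median of 0.10.

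Among proliferation markers and DNA-handling enzymes, Top2a, the topoisomerase that untangles chromosomes, was at 0.09, 0.53 and 0.21 in wild type and 0.24, 1.03 and 0.55 in knockout, a difference of 0.33 (SE 0.23). Knockout 2 was far above the rest, and wild type 2 lay among the knockouts. Mki67, the antigen Ki-67 found in cycling cells, differed by 0.31 (SE 0.24), and by 0.26 on its second probe.

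Among the cyclin B kinase genes, Cdk1, the kinase that starts mitosis, differed by 0.04 and its partners by 0.11 (Ccna2), 0.13 (Ccnb1) and 0.23 (Ccnb2). A second Cdk1 probe gave 0.25, and 2 more Ccnb1 probes gave 0.17 and 0.10. The mitotic kinases Plk1 and Aurka differed by 0.19 and 0.08. Aurkb was well above background on 0 of the 6 arrays, on a probe that is 80% A and T. The brightest Cdk1 probe, at 81.7% A and T, was well above background on all 6. Another Cdk1 probe with the same A and T share was well above background on 0 wild type arrays and 1 knockout array. Whether the A and T share bears on the Aurkb signal was not tested. Of the partners of Aurkb in the chromosomal passenger complex, Birc5 (survivin) differed by -0.02 and Cdca8 (borealin) by 0.19. Further probes gave 0.09 and 0.21 for Birc5 and 0.09 for Cdca8.

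At the spindle checkpoint and the anaphase-promoting complex, Ube2c, the ubiquitin-conjugating enzyme of that complex, was at 2.06, 2.25 and 1.94 in wild type and 2.17, 2.45 and 2.30 in knockout, a difference of 0.22 (SE 0.13). The genotypes overlapped only where wild type 2 exceeded knockout 1, and a second Ube2c probe gave 0.26. Cdc20, the activator of the complex, differed by 0.24, and the checkpoint kinases Bub1 and Bub1b by 0.20 and -0.01.

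Among kinetochore and motor proteins, Cenpf, a large kinetochore protein, was at -6.55, -5.84 and -5.95 in wild type and -5.62, -4.43 and -5.37 in knockout. All knockouts lay above all wild types, with a difference of 0.97 (SE 0.35), but the signal was close to background, well above it on 1 wild type and 3 knockout arrays, and the adjusted p was 1.0 (limma). With normexp background correction the difference was 0.24, and without knockout 2 it was 0.62. Cenpe, Kif11 and Kif20a, the motor proteins of the set, differed by 0.06, 0.11 and 0.04.

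**Figure D2:**
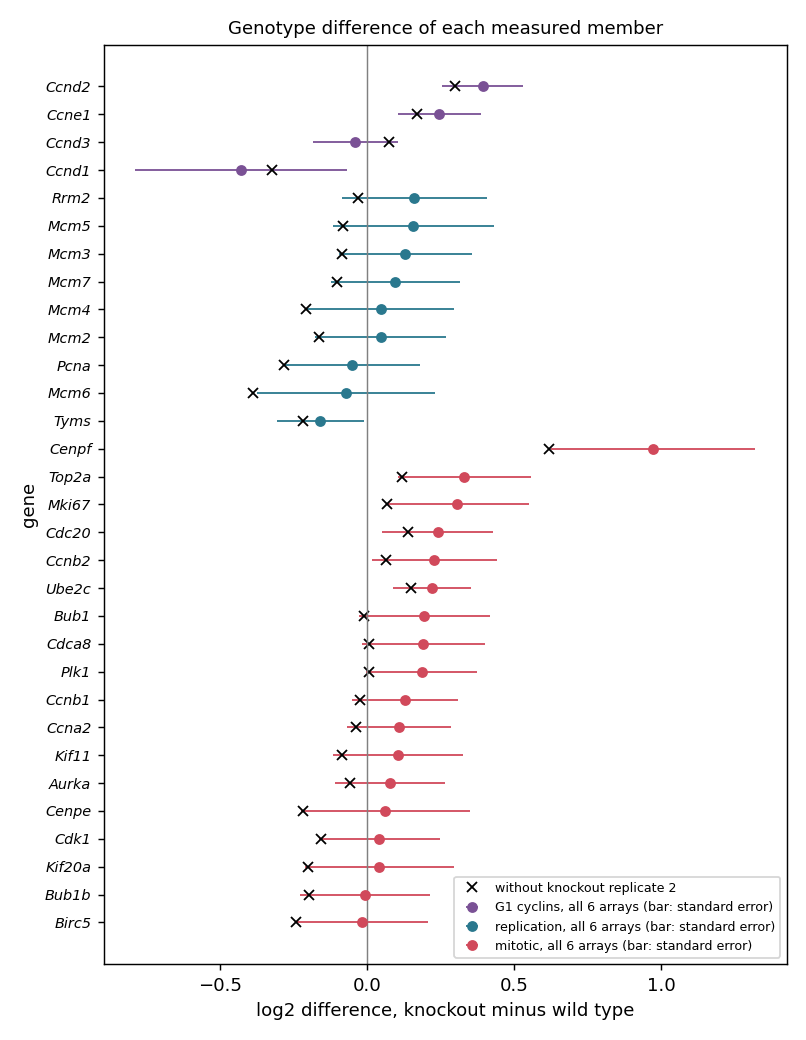
Log2 difference, knockout minus wild type (horizontal axis), for each measured gene (vertical axis); points with bars give the estimate and its standard error from 6 arrays, coloured by group, and crosses give the estimate without knockout 2. All 9 replication crosses lie below 0, whereas 6 of their 9 points lie above it, and Ccnd2 stays above 0 either way.

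The members that oocytes also store were set beside oocyte markers. The 9 genes taken as stored had 8 differences above 0 and 1 below, with a median of 0.13. The 9 measured mitotic genes not on that list, Cenpf among them, likewise had 8 and 1, with a median of 0.19. All 14 oocyte markers, among them Gdf9, Zp3 and Nlrp5, had differences below 0, with a median of -0.21, and 0 were called. Their median deviation was high in wild type 1 (0.35), wild type 2 (0.38) and knockout 2 (0.41) and low in wild type 3 (-0.43), knockout 1 (-0.26) and knockout 3 (-0.48). The stored genes had -0.15, 0.19 and -0.26 in wild type 1 to 3 and -0.12, 0.38 and -0.08 in knockout 1 to 3. Both lists were high in wild type 2 and knockout 2 and low in wild type 3, knockout 1 and knockout 3, and they differed in sign in wild type 1. The part of oocyte number in the values of the stored genes was not tested.

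Other cell type markers also set knockout 2 apart. The 7 corpus luteum markers measured on all arrays had a median deviation of -2.62 in knockout 2 and between 0.13 and 0.89 elsewhere, and 6 of the 7 were lowest there. Their summed linear level, in units of the 75th percentile, was 22.2 in knockout 2, against 102 to 165 in wild type and 129 and 172 in the other knockouts. The 5 measured erythroid markers had a median deviation of 1.53 in knockout 2 and between -0.46 and 0.10 elsewhere. The sum was taken over all listed erythroid markers with values on every array, tested or not. It was 56.5 in knockout 2, against 7.11 to 13.1 in wild type and 12.5 and 14.7 in the other knockouts. Klf1, the erythroid transcription factor, was well above background on 1 array of each genotype. The 12 granulosa markers were highest in knockout 3 (0.60), lowest in wild type 3 (-0.59) and at -0.02 in knockout 2, with sums between 180.3 and 300.8 in wild type and 212.4 and 349.5 in knockout. In wild type 2 the sum of the listed oviduct and ciliated cell markers, tested or not, was 29.8, against 0.36 to 1.08 on the other 5 arrays. The part of these cell types in the order of the members was not tested.

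**Figure D3:**
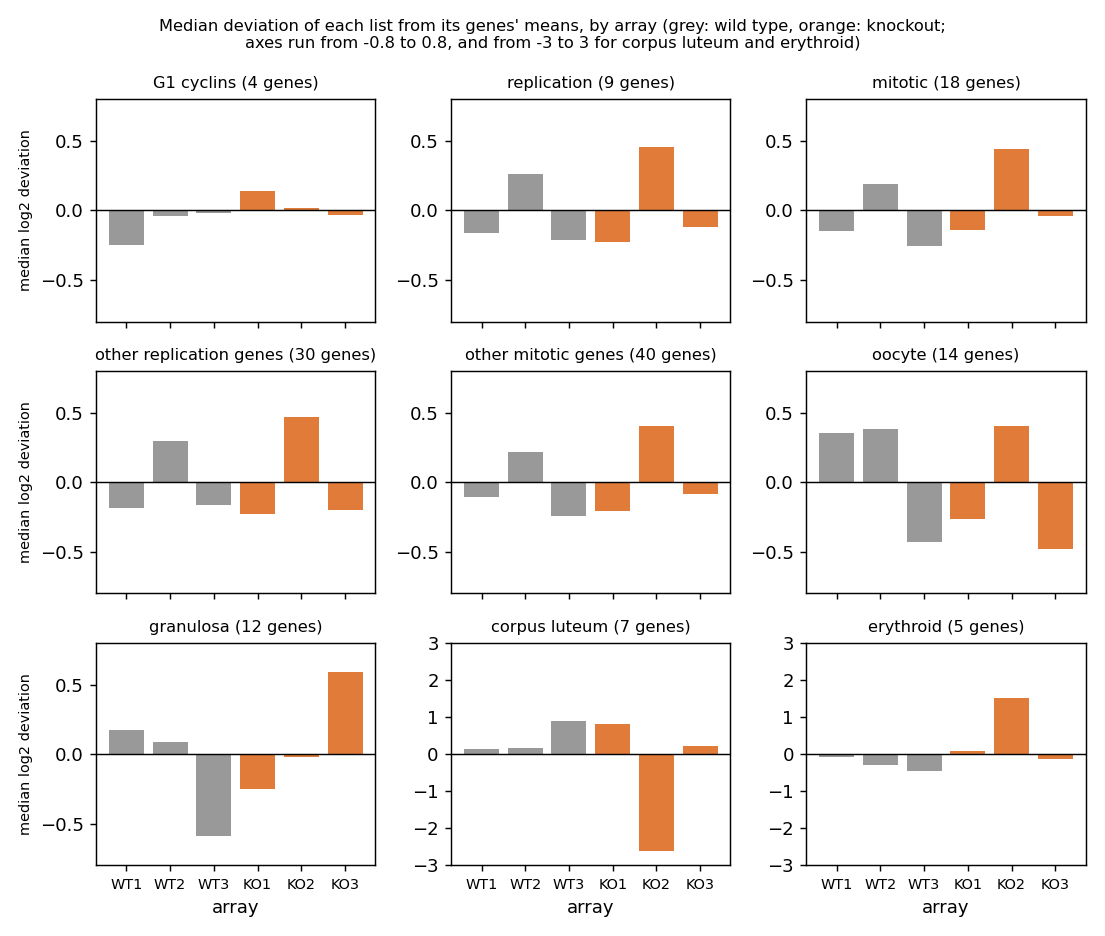
Median deviation of each gene list from its genes' own 6-array means (vertical axes, log2) by array (horizontal axes, WT wild type in grey, KO knockout in orange), for the member groups, other cell cycle genes and cell type markers. Replication and mitotic genes, members or not, have their highest bar in KO2 and their next highest in WT2, while corpus luteum markers are at -2.62 and erythroid markers reach 1.53 in KO2.

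Genes of the same pathway outside the set showed the same array order. Of 30 other replication genes, 19 differences were above 0 and 11 below, with a median of 0.03 and 0 called (0 with an unadjusted p under 0.05, limma). Gins3, a subunit of the helicase-binding GINS complex, differed by 0.40 (SE 0.22). Its wild type 3 value (3.76) exceeded those of knockout 1 (3.64) and knockout 3 (3.68), so the genotypes overlapped. Gins4, of the same complex, differed by -0.15 (SE 0.14). Wild type 2 and knockout 2 led their genotypes in 28 of the 30, Gins3 not among them. Of 40 other mitotic genes, 32 were above 0 and 8 below, with a median of 0.08 and 0 called (0 with an unadjusted p under 0.05, limma), and the 2 arrays led in 36. Cenpa, the histone of centromeres, differed by 0.21 (SE 0.16), and Kif23, a motor of cell division, by 0.26 (SE 0.20).

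The regulators upstream were less uniform. Of 19 E2F, Rb and MuvB-FoxM1 regulators, 8 were above 0 and 11 below, with a median of -0.02 and 0 called (1 with an unadjusted p under 0.05, limma). That one was Rb1, the retinoblastoma gene, at -0.41, -0.37 and -0.44 in wild type and -0.18, 0.01 and -0.17 in knockout, a difference of 0.29 (SE 0.10). Its genotypes did not overlap, and its adjusted p was 1.0 (limma). Of all genes, 4.17% had an unadjusted p under 0.05 (limma), and in 3.95% all knockouts lay above all wild types. Each count of 1 in 19 is near these shares. E2f4, a factor that represses in resting cells, differed by 0.20 (SE 0.18). All 6 measured kinases and phosphatases that drive the cycle were above 0, with a median of 0.09 and 0 called. Wee1, which holds Cdk1 inactive, differed by 0.17 (SE 0.16), and Cdc25b, which activates it, by 0.12 (SE 0.18).

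The CDK inhibitors, which stop the cycle, had their lowest median deviation in knockout 2, where most members stood high. Of 7, 5 differences were above 0 and 2 below, with a median of 0.21 and 0 called (0 with an unadjusted p under 0.05, limma). Their median deviation was -0.49 in knockout 2, 0.69 in knockout 1 and 0.26 in knockout 3. Knockout 2 was lowest in 4 of 7 and highest in 0, beside 4035 and 4530 of 19223 genes. Wild type 3 was lowest in 2 of the 7 and wild type 2 in 1. Cdkn1c (p57) was at 0.30, 0.18 and -0.21 in wild type and 1.05, 0.24 and 0.63 in knockout, a difference of 0.55 (SE 0.24). Its wild type 1 value exceeded that of knockout 2, so the genotypes overlapped. Cdkn1b (p27), which rises as granulosa cells become luteal, was at 2.56, 2.65 and 3.67 in wild type and 3.02, 2.31 and 2.54 in knockout, a difference of -0.34 (SE 0.34). Wild type 3 was the high array and knockout 2 the low one.

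The promoters of the members were searched for the motifs described above. A RefSeq table of build GRCm38.p6, with 250 bases before to 50 after each gene's start, held 28 promoters for 26 of the 33 members; Ccna2, Ccnd1, Ccnd2, Ccne2, Mcm4, Aurkb and Kif20a were not matched. An E2F-type motif (TTTNNCGC with each N a C or a G, either strand) was found in 4 of 9 replication promoters (44.4%), 1 of 16 mitotic promoters (6.25%) and 2.26% of all 32851 promoters. The 9 replication promoters belong to 8 genes, since Mcm7 has 2, only 1 of them with an E2F-type match. The CHR motif (TTTGAA or TTCGAA, either strand) was found in 13 of 16 mitotic promoters (81.3%), 2 of 9 replication promoters (22.2%) and 19.2% of all. CCAAT on either strand was found in 15 of 16 mitotic and 8 of 9 replication promoters and in 37.4% of all. Among the members' matches, E2F-type motifs overlap one another in Mcm5 and Mcm6, and CCAAT boxes of opposite strands overlap in Ube2c. Matches of different motifs overlap in Mcm7 (E2F-type with CCAAT) and in Cdca8 (CHR with CCAAT). A match is a string of letters and not a measured binding site.

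**Figure D4:**
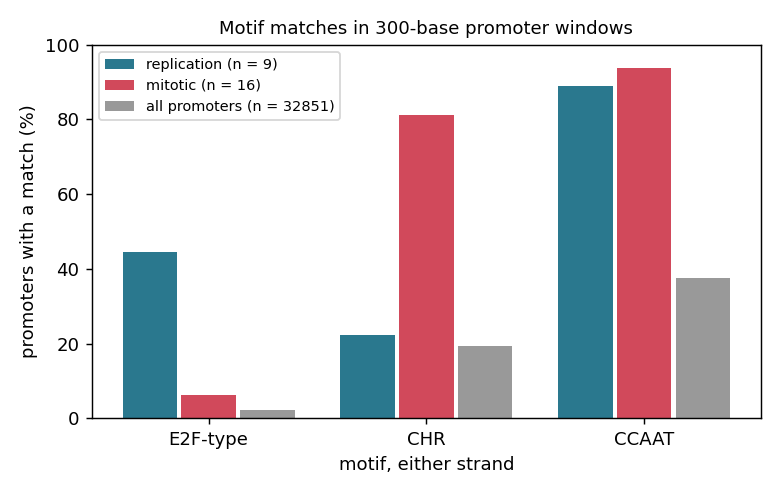
Share of promoters (vertical axis, percent) that hold an E2F-type, CHR or CCAAT motif (horizontal axis), for 9 promoters of replication members, 16 of mitotic members and all 32851 in the table. E2F-type matches are most frequent in replication promoters (44.4%) and CHR matches in mitotic promoters (81.3%).

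A pair of promoters from each group shows the arrangement. Mcm6 (chr1:128359656-128359955, minus strand) and Mcm5 (chr8:75109259-75109558, plus strand) each hold a pair of overlapping E2F-type matches on opposite strands, beginning at -110 in Mcm6 and at -153 in Mcm5 as counted from the start site, and Mcm6 holds another at -47. Cdc20 (chr4:118437294-118437593, minus strand) and Ccnb2 (chr9:70421505-70421804, minus strand) hold CHR motifs and CCAAT boxes near the start, in Cdc20 a CHR at -18 with CCAAT at -53 and -8, and in Ccnb2 a CHR at 5 after CCAAT at -87, -54 and -21. Ccnb2 holds a further CHR match at -167, before its CCAAT boxes. Each promoter is written 5′ to 3′ along its gene in build GRCm38.p6, with E2F-type, CHR and CCAAT matches in capitals.

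Mcm6: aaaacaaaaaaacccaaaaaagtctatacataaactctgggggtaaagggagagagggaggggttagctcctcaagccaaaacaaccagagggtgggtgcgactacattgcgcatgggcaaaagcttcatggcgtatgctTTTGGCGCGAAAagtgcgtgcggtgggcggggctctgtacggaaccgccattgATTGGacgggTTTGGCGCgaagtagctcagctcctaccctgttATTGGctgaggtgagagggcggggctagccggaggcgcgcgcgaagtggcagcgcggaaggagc
Mcm5: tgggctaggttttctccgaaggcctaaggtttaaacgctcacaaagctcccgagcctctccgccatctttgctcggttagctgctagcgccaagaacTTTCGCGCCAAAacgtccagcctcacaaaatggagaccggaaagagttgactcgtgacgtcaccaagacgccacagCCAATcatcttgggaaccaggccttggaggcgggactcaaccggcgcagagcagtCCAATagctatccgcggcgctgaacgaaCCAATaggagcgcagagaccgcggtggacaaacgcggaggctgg
Cdc20: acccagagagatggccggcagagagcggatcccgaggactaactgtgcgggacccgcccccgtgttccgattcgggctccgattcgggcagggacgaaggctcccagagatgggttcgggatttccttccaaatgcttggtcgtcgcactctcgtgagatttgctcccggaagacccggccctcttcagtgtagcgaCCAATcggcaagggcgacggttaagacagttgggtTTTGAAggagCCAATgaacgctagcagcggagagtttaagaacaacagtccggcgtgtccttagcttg
Ccnb2: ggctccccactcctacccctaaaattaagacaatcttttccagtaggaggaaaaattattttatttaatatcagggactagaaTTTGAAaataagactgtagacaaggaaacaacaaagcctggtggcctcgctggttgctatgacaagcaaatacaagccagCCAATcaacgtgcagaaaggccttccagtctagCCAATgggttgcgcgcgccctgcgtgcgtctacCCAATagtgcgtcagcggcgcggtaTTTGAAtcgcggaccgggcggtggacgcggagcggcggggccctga

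The genotype differences of these 4 genes were -0.07 (Mcm6), 0.16 (Mcm5), 0.24 (Cdc20) and 0.23 (Ccnb2), each smaller than the range of its own knockout arrays. All 4 were highest in knockout 2.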

How the data were processed

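Per the file headers, the authors' scanner output is linear spot intensity produced by Agilent Feature Extraction 10.7.1.1, with background subtraction and detrending on each array and mm9 probe positions. A second deposited table of intensity has equal medians on all arrays; its normalization method is not stated. Control and outlier-flagged spots (192 to 459 an array) were left out, spots of a probe were averaged, and log2 of the processed signal minus the array's 75th percentile was taken. Genotypes were compared with limma 3.58.1 in R 4.3.3, two-sided, over 24415 probes, checked on simulated data. A gene was read from its brightest probe. The members and lists were chosen with earlier results of these data known. All members are named; array values are given for those whose genotypes do not overlap, the 3 smallest p-values of each group and, of each pathway list, the 2 smallest are named. Array numbers in this text keep the order of the sample titles. For every wild type array and for knockout 3 they differ from the number in the title. Replicate numbers did not pair the samples: deviations of same-numbered arrays correlated at -0.33, 0.30 and -0.03. The number of arrays and, for dim probes, the background limit precision. 19 alternatives were tried. Python 3.11.15 with pandas 2.3.3 and matplotlib 3.10.9 made the tables and figures.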

Additional observations from a re-analysis of the deposited data

How the results depend on the processing

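No member was called under any of the 19 alternatives (limma), and the lowest adjusted p of any member was 0.242, for Ccnd1 with the slide as a fixed block. Selenbp1 was the 1 call as reported. No probe (0) was called with no filter on dim probes, with the slide as a fixed block, on the shared slide alone, with the replicate block, or with wild type 2 and knockout 2 both left out, and 0 to 19 were called when 1 array was left out, the 19 without wild type 3. The replicate block changed no member's call. With no filter the G1 cyclin median was -0.039, since Ccne2 then enters. Leaving out 1 array moved the median difference from 0.045 to 0.14 (G1 cyclins), -0.16 to 0.19 (replication) and -0.016 to 0.28 (mitotic). Some differences changed sign. With array weights, which were lowest for wild type 3 and knockout 2, these were Ccnd3 0.032, Aurka -0.12, Ccna2 -0.052, Ccnb1 -0.060, Ccnb2 -0.0033, Cdca8 -0.012, Cdk1 -0.11, Cenpe -0.20, Kif11 -0.066, Kif20a -0.24, Plk1 -0.0010, Mcm2 -0.17, Mcm3 -0.079, Mcm4 -0.20, Mcm5 -0.14, Mcm7 -0.12 and Rrm2 -0.064. With the slide as a fixed block or on the shared slide alone they were Birc5 0.14, Bub1b 0.29 and Mcm6 0.18, and with it as a random block Birc5 0.020 and Bub1b 0.058. With wild type 2 and knockout 2 left out they were Ccnd3 0.034, Cdk1 -0.053, Cenpe -0.043, Kif20a -0.050, Mcm2 -0.020 and Mcm4 -0.069. With the deposited table they were Birc5 0.023 and Bub1b 0.0073, with normexp Cdk1 -0.00032 and Pcna 0.0012, and with the mean of a gene's probes Birc5 0.10. Leaving out 1 array gave Aurka -0.059 to 0.21, Birc5 -0.24 to 0.10, Bub1 -0.0087 to 0.38, Bub1b -0.20 to 0.14, Ccna2 -0.036 to 0.23, Ccnb1 -0.024 to 0.24, Ccnd3 -0.16 to 0.073, Cdk1 -0.16 to 0.19, Cenpe -0.22 to 0.28, Kif11 -0.084 to 0.30, Kif20a -0.20 to 0.20, Mcm2 -0.16 to 0.19, Mcm3 -0.085 to 0.28, Mcm4 -0.21 to 0.20, Mcm5 -0.080 to 0.38, Mcm6 -0.39 to 0.11, Mcm7 -0.10 to 0.25, Pcna -0.28 to 0.089 and Rrm2 -0.029 to 0.36. The cause of these sign changes was not tested. Cenpf lies near background, which limits its precision.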
